A study of Mus musculus with 6 samples.

Results

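Nek6 is covered by 17 of the 175929 regions of accessible chromatin (peaks) measured in AE9a leukaemia cells from mice given oil or tamoxifen. Its peaks were chosen by name and distance: a peak belongs to Nek6 if the nearest transcription start site (TSS) is that of Nek6 and lies within 100000 bp. The gene itself was selected on the oil against tamoxifen contrast of these same libraries, so its difference between the groups is described below and not tested. All 17 peaks named for Nek6 met the limit, and the farthest lay at -77724 bp from the TSS. The nearest excluded peaks belonged to Lhx2 on the upstream side and to Psmb7 on the downstream side.

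The study asked how loss of 1 Usp18 allele changes established leukaemia driven by AE9a, a truncated AML1/ETO fusion protein. Chromatin was profiled with ATAC-seq, in which a transposase cuts and tags open DNA. Both groups carried Usp18+/f UBCER-Cre leukaemia cells, with 1 floxed and 1 intact Usp18 allele and a ubiquitously expressed Cre that tamoxifen activates. The cells were made by retroviral transfer of AE9a with GFP, so all libraries share that origin. Recipient mice received oil (replicates 1, 2 and 4) or tamoxifen (replicates 1, 3 and 4) once they were sick, and the tamoxifen cells are termed Usp18+/Δ in the study. Splenic Lin- c-Kit+ GFP cells were taken by cell sorting on day 3 from the first injection. No group here received tamoxifen without a floxed allele, so the drug, Cre activity and loss of the allele cannot be told apart. Whether the libraries of a group are from different mice is not in the labels. The study's RNA methods give as many mice as there are libraries for the cells shared with ATAC-seq. Elsewhere it states fewer ATAC-seq replicates, without saying whether these cells or its human cell lines are meant. SD and n here are over libraries, and p-values set the difference between groups against the spread between libraries.

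Nek6 encodes a serine/threonine kinase of the NIMA-related (NEK) family that acts in mitosis. Nek9, itself switched on downstream of the kinases Cdk1 and Plk1, activates Nek6 and its close paralogue Nek7, and Nek6 phosphorylates the spindle motor Kif11. Nek7 is also known for its part in NLRP3 inflammasome assembly in myeloid cells. Accessibility is not expression, and the values below say how often a site was cut, not how much Nek6 was made.

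The mouse gene lies on the plus strand of chromosome 2 (mm10) and spans 38511643 to 38594606 in GENCODE. The start-site peak (chr2:38511623-38512049) contains both curated RefSeq starts, at 38511697 and 38511876, and distances are from the nearer of these. In the authors' annotation of the 17 peaks, 3 were intergenic, 12 lay in intron 1, 1 lay in intron 7 and 1 was the promoter. A second peak near the promoter, at 2746 bp, covered predicted RefSeq starts at 38514578 and 38514586. RefSeq also has a predicted Nek6 start at 38483863, which no peak covered, and the transcript from it contains the -1400 bp peak. The peak at -39739 bp lay inside Gm39799, a RefSeq noncoding transcript on the opposite strand (38468277 to 38502392). A run of 8 peaks, each under 2500 bp from the next, lay in intron 1 from 38531097 to 38537293 and covered 2001 of these 6197 bp. It surrounds starts of Gm35808, a noncoding transcript on the opposite strand. The RefSeq start of Gm35808 (38533437) lay in the 21595 bp peak, and its GENCODE start (38535707) in the 23889 bp peak.

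The sequences below, read from the mm10 reference on the plus strand, are the start-site peak and 4 intron 1 peaks. The intron peaks are the most accessible one (24709 bp), the one next to it in order of adjusted p (21595 bp), the one with the largest fold change (23889 bp) and one inside an endogenous retroviral repeat (31470 bp). Capitals mark matches on either strand to 9 short motifs, spelled out further on.
start-site peak, central 300 bases (chr2:38511686-38511985): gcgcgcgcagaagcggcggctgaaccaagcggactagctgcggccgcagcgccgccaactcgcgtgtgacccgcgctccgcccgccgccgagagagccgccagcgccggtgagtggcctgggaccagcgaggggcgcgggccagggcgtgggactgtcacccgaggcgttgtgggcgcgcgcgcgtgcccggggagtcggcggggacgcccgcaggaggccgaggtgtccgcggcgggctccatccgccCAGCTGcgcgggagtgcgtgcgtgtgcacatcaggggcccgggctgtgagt
21595 bp peak (chr2:38533342-38533601): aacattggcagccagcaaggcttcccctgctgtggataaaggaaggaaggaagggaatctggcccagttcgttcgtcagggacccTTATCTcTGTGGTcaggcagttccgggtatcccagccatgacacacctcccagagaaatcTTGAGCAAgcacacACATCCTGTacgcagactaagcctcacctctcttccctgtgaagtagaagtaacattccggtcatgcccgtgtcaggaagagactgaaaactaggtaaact
23889 bp peak (chr2:38535662-38535868): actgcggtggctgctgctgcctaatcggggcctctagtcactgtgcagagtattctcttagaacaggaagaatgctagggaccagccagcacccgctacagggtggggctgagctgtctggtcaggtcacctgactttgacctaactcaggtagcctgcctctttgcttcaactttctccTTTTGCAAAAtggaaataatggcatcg
24709 bp peak (chr2:38536470-38536701): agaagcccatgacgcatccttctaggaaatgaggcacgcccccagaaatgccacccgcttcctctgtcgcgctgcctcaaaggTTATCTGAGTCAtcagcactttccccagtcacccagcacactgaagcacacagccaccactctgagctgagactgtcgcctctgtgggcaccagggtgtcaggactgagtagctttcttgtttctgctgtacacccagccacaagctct
31470 bp peak (chr2:38543240-38543452): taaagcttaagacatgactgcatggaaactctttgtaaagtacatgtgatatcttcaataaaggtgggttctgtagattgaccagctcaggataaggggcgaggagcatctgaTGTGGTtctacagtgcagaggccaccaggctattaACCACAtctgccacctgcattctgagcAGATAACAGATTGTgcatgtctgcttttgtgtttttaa

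The start-site peak was CG rich, with a GC content of 80.0% over its central 200 bp. The other peaks lay between 45.0% and 60.0%, beside a median of 50.5% over all peaks. In the 24709 bp peak a GATA match and an AP-1 match ran into each other and shared 1 base. The 31470 bp peak, in an RLTR18B element of the ERVK class, held 2 RUNX matches in opposite orientations, and a GATA match that ran into a glucocorticoid element. Other peaks in repeats were those at -77724 bp (an Lx9 L1 element), 20789 bp (MER47B) and 21595 bp (MIRb).

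Accessibility at the locus was higher in every tamoxifen library than in every oil library. Tags (read pairs, scaled to library size) summed over the 17 peaks were 481 in oil replicate 1, 416 in oil replicate 2 and 549 in oil replicate 4. The sums were 1295, 1402 and 1180 in tamoxifen replicates 1, 3 and 4. The mean rose from 482 ± 66.2 (SD, n = 3) to 1292 ± 111 (SD, n = 3), a ratio of 2.68. The lowest tamoxifen sum was 2.15 times the highest oil sum. As an assay of sorted cells in bulk, this cannot tell more cells with an open locus from a locus more open in each cell.

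Each of the 17 peaks followed this direction, and in all 17 the 3 tamoxifen libraries lay above the 3 oil libraries. Over all peaks, 11.9% showed that separation upward. The log2 change of tamoxifen over oil ran from 0.67 to 2.13 over the 17 peaks, with a median of 1.48 beside 0.00 over all peaks tested. The SE of these changes ran from 0.19 to 0.48. At a fold over 2 and an adjusted p under 0.05 (DESeq2, Benjamini-Hochberg over all peaks), 11 peaks were called higher and 0 lower. Of all peaks, 0.588% were called higher and 0.0659% lower. Since the gene was selected on this contrast, nothing is read from these counts.

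**Figure D1:**
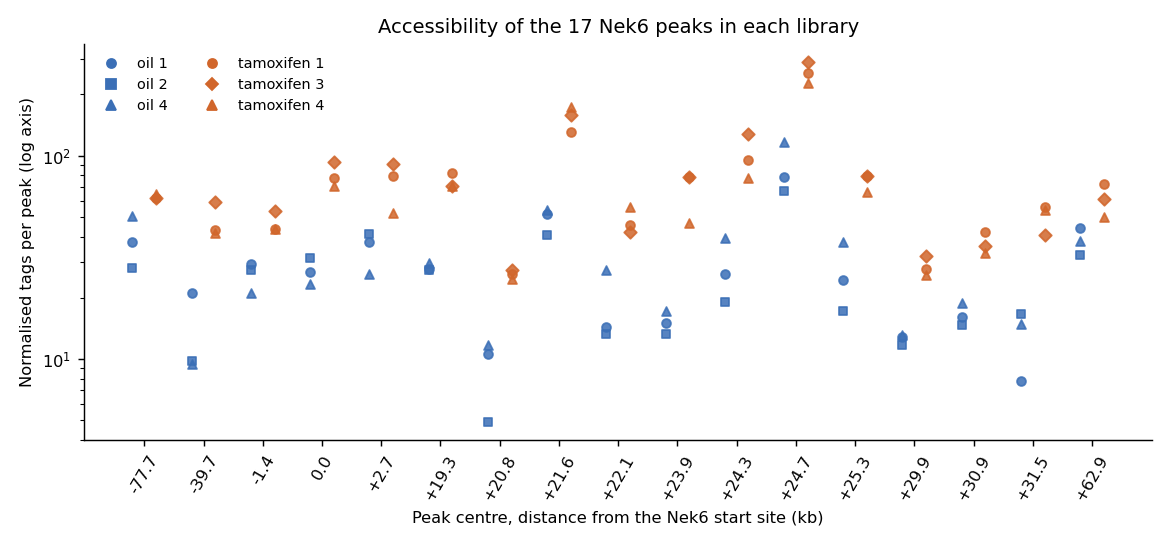
Normalised tags per peak (log axis) in each of the 6 libraries for the 17 Nek6 peaks, ordered by the distance of the peak centre from the TSS in kb; blue symbols are oil and orange symbols tamoxifen libraries, 1 symbol per library. In all 17 peaks the orange symbols lie above the blue ones, and the peak at 24709 bp is the highest in both groups.

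At the start-site peak, normalised tags were 26.6, 31.4 and 23.4 in oil replicates 1, 2 and 4. They were 77.3, 93.0 and 71.2 in tamoxifen replicates 1, 3 and 4. The groups were well apart, and the log2 change was 1.57 ± 0.28 (SE). The peak was in the authors' tamoxifen peak list and not in their oil list, although tags were present there in each oil library. Upstream of it, the -1400 bp peak moved less, from 26.0 ± 4.30 to 46.8 ± 5.53 (n = 3 per group, SD). Downstream, the 2746 bp peak over the predicted starts went from 35.0 ± 7.89 to 74.3 ± 19.9 (n = 3 per group, SD), and tamoxifen replicate 4 was the lowest of its group there, at 52.4.

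The most accessible peak per kb in the oil group was the 24709 bp peak in intron 1. It held 78.8, 67.2 and 117 normalised tags in the oil libraries (replicates 1, 2 and 4). The tamoxifen libraries held 254, 289 and 228 (replicates 1, 3 and 4). Oil replicate 4 stood above the other oil libraries but below each tamoxifen library, and the log2 change was 1.54 ± 0.19 (SE). The mean level after tamoxifen was 1108 normalised tags per kb, beside 188 at the start site. These peaks are 232 and 427 bp long, and per peak the means were 257 and 80.5.

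Close by, the 24258 bp peak held 26.1, 19.1 and 39.2 normalised tags after oil. After tamoxifen it held 94.8, 127 and 77.7, a log2 change of 1.79 ± 0.29 (SE). Here too oil replicate 4 was the highest oil library and tamoxifen replicate 4 the lowest tamoxifen library. The 23889 bp peak, which covers the GENCODE start of Gm35808, changed most of the 17. Its values were 15.0, 13.2 and 17.1 after oil and 78.7, 78.4 and 46.8 after tamoxifen, a log2 change of 2.13 ± 0.35 (SE). Tamoxifen replicate 4 lay between the other tamoxifen libraries and the oil libraries at this peak.

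The 21595 bp peak, over the RefSeq start of Gm35808, held 51.6, 40.7 and 54.1 normalised tags after oil. It held 131, 159 and 174 after tamoxifen, with replicate 4 the highest, and a log2 change of 1.66 ± 0.21 (SE). The order of the tamoxifen libraries at this peak was thus the reverse of that at the 23889 bp peak for replicates 1 and 4. The 25301 bp peak, last of the run, held 24.4, 17.2 and 37.4 after oil and 79.2, 79.6 and 66.0 after tamoxifen (log2 change 1.48 ± 0.30, SE). The 19335 bp peak, first of the run, was the steadiest after oil, at 27.7, 27.5 and 29.7, and rose to 82.6, 71.2 and 70.7 (log2 change 1.41 ± 0.28, SE).

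Beyond the run, the 31470 bp peak in the retroviral element held 7.77, 16.7 and 14.9 normalised tags after oil. It held 55.9, 40.9 and 53.8 after tamoxifen, a log2 change of 1.95 ± 0.38 (SE). Oil replicate 1 was the lowest value there and rests on few tags. Of the other called peaks, the one at -39739 bp, inside Gm39799, went from 13.4 ± 6.61 to 48.1 ± 9.80 (n = 3 per group, SD). The 22076 bp peak went from 18.4 ± 7.90 to 48.0 ± 7.35 (n = 3 per group, SD).

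Besides the -1400 bp peak, 5 peaks were not called. The outermost ones had the smallest changes. The -77724 bp peak held 38.7 ± 11.3 after oil and 62.7 ± 1.70 after tamoxifen (n = 3 per group, SD), and the intron 7 peak at 62885 bp held 38.0 ± 5.73 and 61.0 ± 11.4 (n = 3 per group, SD). The peaks at 20789, 29932 and 30859 bp had log2 changes of 1.48, 1.17 and 1.19. These 3 peaks had oil means of 9.05, 12.5 and 16.6 normalised tags, and their SEs, 0.48, 0.43 and 0.38, were among the largest of the locus. They passed the threshold with the quasi-likelihood test of edgeR, and with DESeq2 on doubled tags in place of rounded ones, which each called 14 of the 17.

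Levels and peak lists rest on the same tags as the contrast that selected the gene and only describe it. The median oil level of the 17 peaks, 26.3 normalised tags per peak, was below the median of 50.3 over all peaks, and after tamoxifen it was 62.7 beside 51.2. Of the 17, 11 were in the authors' tamoxifen peak list only and 6 in both lists. That is 64.7% in the tamoxifen list only, beside 11.2% of all peaks, and the lists were made from these libraries. The run of 8 peaks held 53.7% ± 6.27 of the locus's tags after oil and 62.2% ± 0.97 after tamoxifen (n = 3 per group, SD). Its limits were set after its values were seen. Its summed tags were 249, 203 and 333 after oil and 792, 873 and 744 after tamoxifen. Oil replicate 4 was thus the highest oil library in the run, and it was the highest of its group in 11 of all 17 peaks. Tamoxifen replicate 4 was the lowest of its group in 13 of 17.

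The libraries differed in ways that bear on this. Depth was 57.4 to 74.7 M tags (M is 1000000), and 17.5 to 21.1 M of these were in peaks. Across all peaks, log2 tags correlated at 0.983 between oil libraries and at 0.978 between tamoxifen replicates 1 and 3, but at 0.963 between tamoxifen replicate 4 and these. Tamoxifen replicate 4 correlated at 0.972 to 0.976 with the oil libraries, so over all peaks it stood nearer to oil than to its own group. At Nek6 its locus sum was 1180, beside a highest oil sum of 549. The gene was selected on the contrast of these same libraries, so nothing is read from that separation. Without tamoxifen replicate 4, 10 of the 17 peaks were called, and the median log2 change was 1.53. Counts of all peaks called moved from 1150 to 2603 without it. The Usp18 start-site peak held 1897 to 2095 normalised tags per kb after oil and 2003 to 2142 after tamoxifen. That peak does not check the deletion, since an intact allele remains and the floxed part was not located here.

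Markers of the sorted population and of other cells were read in the same way. The start-site peak of Kit, the receptor used in the sort, was at percentile 80.2 after oil and 82.3 after tamoxifen among 14458 genes with a start-site peak. That of Cd34, another progenitor marker, was called higher, at 353 ± 81.2 normalised tags per kb after oil and 1005 ± 225 after tamoxifen (n = 3 per group, SD; log2 change 1.50 ± 0.19, SE, adjusted p = 8.3e-12, DESeq2). Start-site peaks of Flt3 and Meis1 were not called, with log2 changes of 0.73 ± 0.22 and 0.64 ± 0.24 (SE). Of the 604 peaks at marker genes of 6 cell types, 3 were called, beside 1150 of all 175929 peaks. The unadjusted p (DESeq2) was under 0.05 for 83 of them (13.7%), beside 9.02% of all peaks. In 113 (18.7%) every tamoxifen library was above every oil library, beside 11.9% of all peaks. Summed normalised tags did not overlap between the groups for T cell genes (1154 to 1309 after oil, 1358 to 1514 after tamoxifen) or for Klrb1c, the 1 gene of the NK cell list with peaks (2790 to 2911 and 3188 to 3235). Nor did they for mature myeloid genes (4058 to 4142 and 4210 to 4390), leukaemic progenitor genes (33302 to 34818 and 35251 to 38456) or erythroid genes (8735 to 9004 and 7936 to 8477). B cell genes overlapped (3156 to 3247 and 2999 to 3348). How often the sums of other gene lists separate in this way was not tested. Peaks with every tamoxifen library above every oil library were 6 of 25 at T cell genes and 7 of 18 at Klrb1c. They were 81 of 366 at progenitor genes, and each of these shares was above the 11.9% of all peaks. The mature myeloid share (8 of 67) was also 11.9%, and that of B cell genes (4 of 49) was 8.16%. Of 79 erythroid peaks, 7 (8.86%) separated in this direction and 21 in the other. Of the defining markers, Ms4a1, Ncr1, Klrd1 and Camp had no peak, and the start-site peaks of Cd5, Cd3g, Ebf1, Adgre1 and Slc4a1 had means under 100 normalised tags per kb in both groups. The part of other cells in the Nek6 difference was not tested.

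**Figure D2:**
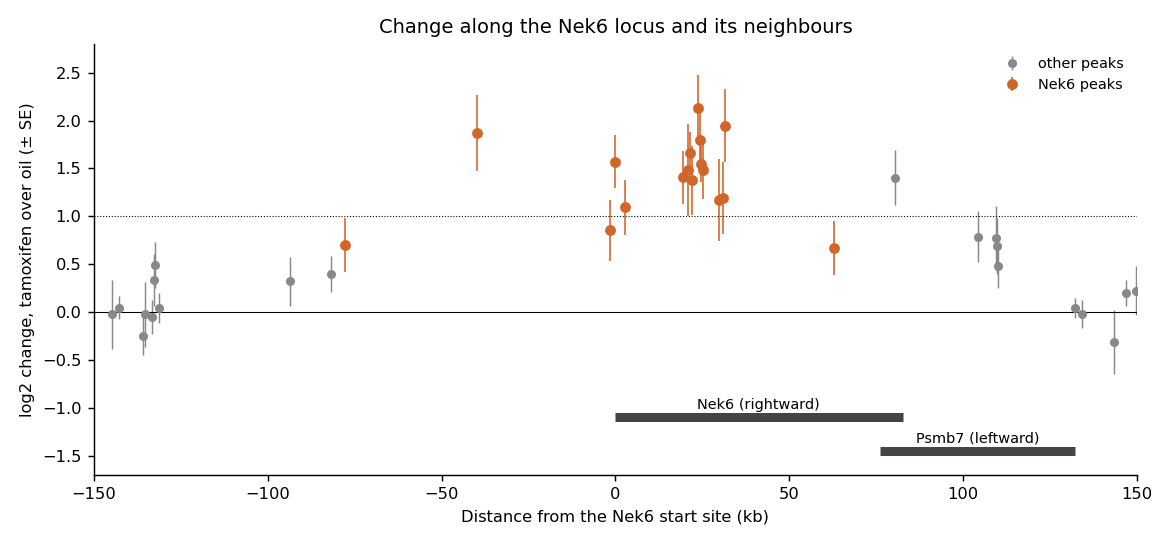
Log2 change of tamoxifen over oil (± SE from DESeq2) against distance from the Nek6 TSS in kb, for the Nek6 peaks (orange) and for peaks named for other genes (grey) within 150 kb. Bars mark the GENCODE spans of Nek6 and Psmb7, the dotted line a 2-fold change; all orange points are above 0, and 1 grey point, where the gene spans overlap, lies above the dotted line.

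The next question was how far along the chromosome the difference reached. Within 500000 bp of the Nek6 TSS lay 94 peaks named for 10 other genes. Of these 1 was called higher and 0 lower (edgeR also called 1 in all), beside 0.588% and 0.0659% of all peaks. An unadjusted p under 0.05 was found for 13 (13.8%), beside 9.02% of all peaks. Their median log2 change was 0.05. In 21 of the 94 (22.3%) every tamoxifen library was above every oil library, beside 11.9% of all peaks.

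The called neighbour lay inside the Nek6 gene by GENCODE. It is the peak at chr2:38592163-38592388, 80400 bp from the Nek6 TSS, where the 3′ ends of Nek6 and Psmb7 overlap, and its name came from the nearer TSS. Psmb7 encodes a catalytic subunit of the proteasome. The peak held 21.6, 39.7 and 29.7 normalised tags after oil and 84.1, 96.9 and 62.7 after tamoxifen. The groups did not overlap, and the log2 change was 1.40 ± 0.29 (SE, adjusted p = 0.000359, DESeq2). Without tamoxifen replicate 3 it was no longer called.

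Farther on, 4 peaks in intron 5 of Psmb7 had log2 changes of 0.79, 0.77, 0.69 and 0.48. In each of them the tamoxifen libraries were above the oil libraries, and none was called (adjusted p = 0.136 to 0.499, DESeq2). The Psmb7 start-site peak held 387 normalised tags after oil and 397 after tamoxifen, with overlapping groups (log2 change 0.04 ± 0.11, SE). Nr5a1, the next gene, encodes a nuclear receptor of steroid-producing tissue. Its 8 peaks had a median log2 change of 0.57, 4 of them without overlap, and none was called. On the upstream side, Lhx2 (a LIM homeobox factor) had a median of 0.08 over 22 peaks, and Dennd1a had -0.27 over 21. The Lhx2 peak nearest to Nek6, at -81732 bp from the Nek6 TSS, had a log2 change of 0.40 ± 0.19 (SE) without overlap. The next, at -93678 bp, had 0.32 ± 0.25 (SE) with overlapping groups, and neither was called.

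**Figure D3:**
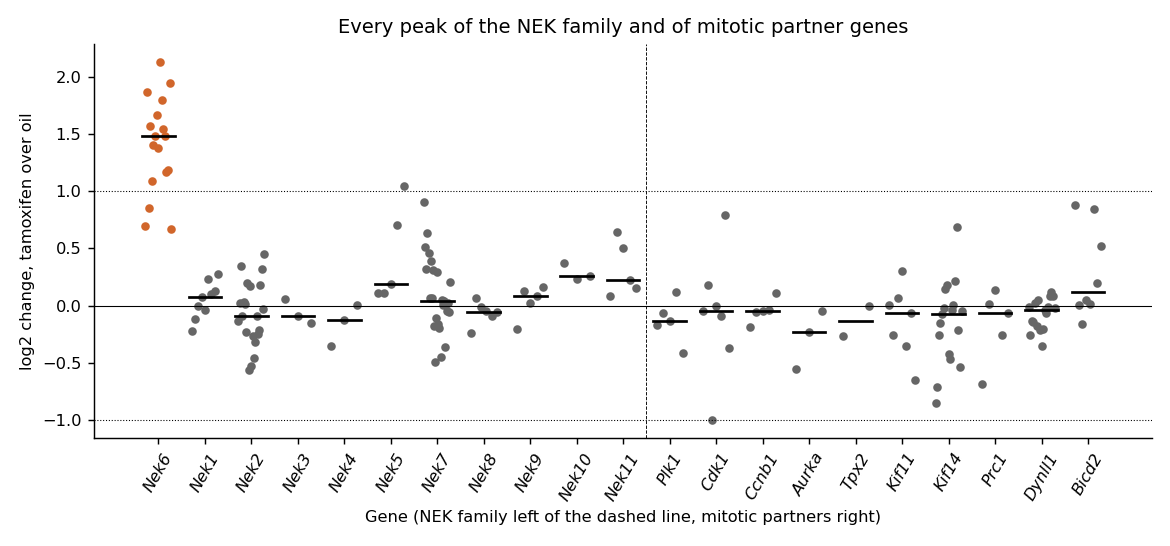
Log2 change of tamoxifen over oil of every peak within 100 kb of the TSS of Nek6 (orange), of 10 other NEK genes and of 10 mitotic partner genes (grey); black bars are medians and dotted lines mark 2-fold changes. Only 1 grey point, at Nek5, lies above the upper line.

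The rest of the NEK family was compared over 85 peaks of 10 genes, and partners of Nek6 in mitosis over 76 peaks of 10 genes. None of the 161 peaks was called by DESeq2, beside 0.588% of all peaks called higher and 0.0659% lower. With edgeR 1 was called, beside 1908 of all 175929 peaks. An unadjusted p under 0.05 was found for 16 (9.94%), beside 9.02% of all peaks. The median log2 change was 0.04 over the family and -0.05 over the partners. In 19 of the 161 the tamoxifen libraries all lay above the oil libraries, 11.8% beside 11.9% of all peaks.

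The close paralogue Nek7 had 25 peaks, with log2 changes from -0.49 to 0.91. Its start-site peak held 3035, 2934 and 2778 normalised tags per kb after oil and 2738, 2935 and 2766 after tamoxifen. These groups overlapped (log2 change -0.05 ± 0.08, SE). An intron 3 peak of Nek7, 83830 bp from its TSS, went from 43.0 ± 5.17 to 81.5 ± 19.2 normalised tags (n = 3 per group, SD). It had an adjusted p of 0.039 (DESeq2) at a log2 change of 0.91 ± 0.26 (SE), under the fold limit.

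Nek9, the upstream activator, held 2492, 2384 and 2195 normalised tags per kb at its start site after oil and 2488, 2934 and 2286 after tamoxifen. Nek2, which acts in centrosome separation, held 3170, 3193 and 2821 after oil and 3116, 3148 and 2993 after tamoxifen. Both pairs of groups overlapped, with log2 changes of 0.12 ± 0.11 and 0.01 ± 0.09 (SE). The peak that edgeR called was one of Nek5 at -9471 bp, inside an MTD retroviral repeat. It held 21.6, 22.1 and 19.4 normalised tags after oil and 50.1, 46.5 and 33.2 after tamoxifen, and its log2 change was 1.05 ± 0.34 (SE).

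Among the partners, the start-site peaks of Plk1, Cdk1, Ccnb1 (cyclin B1), Aurka, Tpx2 and Kif11 had log2 changes between -0.10 and 0.07. An intergenic peak of Kif14, a cytokinesis motor, moved the other way from Nek6. It fell from 172 ± 15.8 to 94.5 ± 28.4 normalised tags (n = 3 per group, SD). Its log2 change was -0.85 ± 0.20 (SE, adjusted p = 0.0028, DESeq2), under the fold limit. Without tamoxifen replicate 4, 3 of the 161 peaks were called, beside 2603 of all 175929 peaks. They were the Nek5, Nek7 and Kif14 peaks just given.

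**Figure D4:**
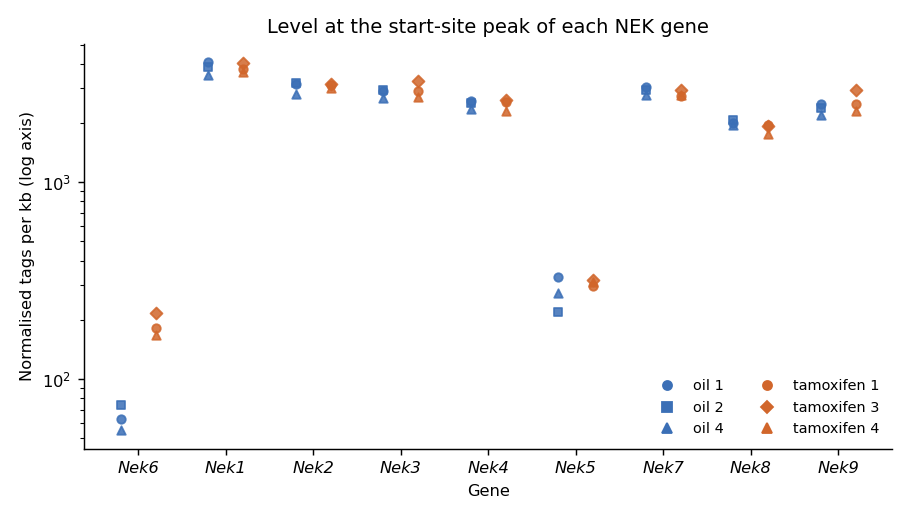
Normalised tags per kb (log axis) at the peak nearest to the TSS, within 1000 bp, for Nek6 and the 8 other NEK genes that have one; symbols are single libraries, blue for oil and orange for tamoxifen. Nek6 is lowest in both groups, and the other 8 genes show no shift of the size seen at Nek6.

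In level, the Nek6 start site was the least accessible of the 9 NEK genes with a start-site peak. Per kb it held 63.6 ± 9.37 normalised tags after oil and 188 ± 26.4 after tamoxifen (n = 3 per group, SD). That put it at percentile 1.04 of 14458 genes after oil and at percentile 17.6 after tamoxifen. The next in order was Nek5, at 274 ± 54.8 and 310 ± 11.6 normalised tags per kb (n = 3 per group, SD). The highest tamoxifen library at Nek6 (218) did not reach the lowest oil library at Nek5 (219), though they nearly met. Nek8 followed at 2005 ± 64.4 after oil, and Nek1 was highest at 3803 ± 270 (n = 3 per group, SD). Nek9 and Nek4, at 2357 ± 150 and 2479 ± 111 after oil, did not differ beyond their spread, nor did Nek3 and Nek7, at 2838 ± 146 and 2916 ± 130. Nek2, at 3061 ± 209, overlapped Nek7. Start-site peaks differed in length, at 427 bp for Nek6, 474 bp for Nek5 and 201 bp for Nek1. A wide peak can lower a value per kb, and with it the percentile.

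Motif matches were counted in the central 200 bp of each peak. Of the 17 peaks, 6 held the GATA motif AGATAA, beside 15.1% of all peaks. The E-box CAGCTG was in 4 (13.1% of all peaks) and the ETS motif GGAAGT in 3 (18.3%). The AP-1 motif TGANTCA, the C/EBP motif TTGCNNAA and the glucocorticoid element ACANNNTGT were in 3 each, beside 6.61%, 6.44% and 6.02%. The RUNX motif TGTGGT was in 2 (18.7%), as was the interferon response core GAAANNGAA (5.13%). The NF-kB motif GGGANTTTC was in 0 (0.712%). In 4 peaks, the start-site peak among them, no motif of the 9 was found in that window, beside 38.5% of all peaks. Some capitals in the sequences lie outside the central window and are not in these counts. A match is a string of letters and says nothing of binding.

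Genes whose summed accessibility varied most like that of Nek6 were sought among 14875 genes with at least 3 peaks and a mean of at least 100 normalised tags. That mean was over all 6 libraries, so a gene could pass through its higher group alone. Gpr149, named below, had means of 52.1 after oil and 169 after tamoxifen. Likeness was the root mean square distance between log2 sums over the 6 libraries, each centred on its mean. The nearest were Clnk (distance 0.13), Neu4 (0.14), 3200001D21Rik (0.15), Gpr149 (0.16) and Jag1 (0.19). Clnk encodes an immune cell adaptor, Neu4 a sialidase and Jag1 a Notch ligand. Clnk held 111, 76.5 and 134 summed normalised tags after oil and 279, 302 and 269 after tamoxifen. Like Nek6, it was lowest in oil replicate 2 and highest in oil replicate 4 within the oil group. Jag1, the least like of the 5, held 135, 125 and 181 after oil and 335, 393 and 258 after tamoxifen, so that tamoxifen replicate 4 lay lower there than at Nek6. Pearson's r with Nek6 ran from 0.97 to 0.99 over the 6 libraries for these genes. A total of 1043 of the 14875 genes, Nek6 included, had an r over 0.9, and the 6 libraries fall into 2 groups that all genes share. By fold of its sum, Nek6 was 9th of the 14875. Nek6 was selected on this same contrast, so nothing is read from that rank or from the likeness.

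**Figure D5:**
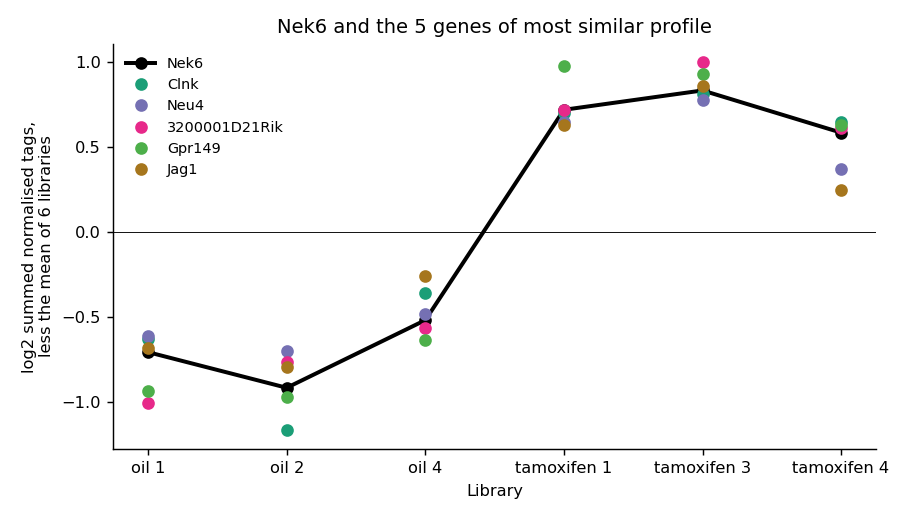
Log2 of the summed normalised tags of a gene's peaks in each library, less its mean over the 6 libraries, for Nek6 (black line, which only joins its points) and the 5 genes of most similar profile (coloured points). Nek6 lies below 0 in the 3 oil libraries and above 0 in the 3 tamoxifen libraries, as the 5 genes do, and Neu4 and Jag1 lie below it in tamoxifen 4.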

How the data were processed

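Paired ATAC-seq reads were aligned by the authors to mm10 (Bowtie2). HOMER was used for peak calling, for merging the peak lists of both groups and for tag counting. What was deposited is an estimated count: unnormalised tags in each merged peak, where either mate of a read pair adds 0.5, and no position gives over 3 tags. This limit caps the highest peaks. A peak enters the table only if it was called in a group of the libraries then compared. Tags were rounded, scaled by median-of-ratios size factors and tested over all 175929 peaks with DESeq2 1.42.0 (R 4.3.3), a Wald test of tamoxifen against oil with Benjamini-Hochberg adjustment, and with edgeR 4.0.16 as an alternative. A peak was called at a fold over 2 and an adjusted p under 0.05, and peaks within 3000 bp of a TSS were termed promoter-proximal. The fits were also run on simulated data. Every library there had the same spread and none deviated as tamoxifen replicate 4 does, so nothing about these data is read from that run. Median tags per peak were 45.0 to 57.0 in a library, and SDs and SEs hold counting error besides other spread.

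Groups came from the sample labels. The gene, its lists, tests and alternatives were chosen with earlier results of these data known. Peaks given in every library were the start-site peak, the peak with most oil tags per kb and the 8 called peaks with the smallest adjusted p, which contain the former 2. Of the other lists, the start-site peaks of Nek7, Nek9 and Nek2 and called peaks without overlap were named. The other peaks of those lists were named after their values were seen. Sequences came from the RefSeq GRCm38.p6 assembly, whose primary chromosomes are those of mm10, and 0 peaks ended past a chromosome.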

Additional observations from a re-analysis of the deposited data

How the results depend on the processing

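Of 17 Nek6 peaks, 11 were called, and all 17 kept a positive log2 change in each of the 14 alternative fits. The 8 peaks given in every library stayed called in all of these but 2. Without tamoxifen replicate 1 the 31470 bp peak was not called, and none of the 8 was under the block described next.

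Numbers 1 and 4 occur in both groups, but nothing says that they pair the libraries, whose deviations from their group means correlated at -0.04 and 0.05. With the replicate number as a block, which leaves 4 libraries, 0 Nek6 peaks, 56 of all peaks and 0 neighbour peaks were called, and the median Nek6 change was 1.31. The design then has few degrees of freedom.

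Leaving out 1 library at a time gave 7 to 10 called Nek6 peaks (7 without tamoxifen replicate 1), a median log2 change of 1.25 (without oil replicate 2) to 1.64, and a change of the locus sum of 1.33 to 1.53, beside 1.42 in all libraries. The same step gave 369 (without tamoxifen replicate 3) to 2603 (without tamoxifen replicate 4) calls over all peaks beside 1150, 0 to 3 in the NEK family and partners beside 0, and 0 to 1 among neighbours beside 1.

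Tags doubled instead of rounded gave 1888 calls over all peaks and 1 in the family and partners, and edgeR gave 1908 and 1. Each called 14 Nek6 peaks, the 11 among them. With no limit on the fold the counts were 2448 and 2. Other size factors, the filter on low tags, separate fits, and distance limits left the counts within 1.5 times of these. The causes were not tested. Both called and uncalled Nek6 peaks held under 20 unnormalised tags in every oil library. The 20789 bp peak, not called, held 9.5, 5 and 13 in oil replicates 1, 2 and 4. The called 31470 bp peak held 7, 17 and 16.5.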
